A study of Mus musculus with 18 samples.

Results

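The libraries described here came from clone 17 of the mouse pancreatic tumour line 2838, labelled a CRISPR knockout of Mcu, and from clones 15 and 22 of the same line, labelled Mcu wild type. They were chosen by clone label and make up 9 of the 18 libraries of the series, 3 per clone. Each wild-type clone was its own contrast, and the 2 contrasts share the clone 17 libraries. A gene is called higher or lower in clone 17 when it passed the test with one sign against both. The parent mice, KPCY, are a genetic model of pancreatic cancer and carry, among other alleles, a mutant p53 allele (Trp53 LSL-R172H/+). It is switched on by Pdx1-Cre, a recombinase driven by a promoter of the embryonic pancreas, as is a yellow fluorescent reporter (R26LSL-Yfp/LSL-Yfp). These alleles are shared by the clones labelled wild type and knockout. By their labels clones 15 and 22 express an empty vector, and none is mentioned for clone 17, so vector and edit cannot be told apart. All cells were untreated and in batch 2. Each group is a single clone, so what the label names cannot be told apart from what sets one clone apart from another. No label says that the libraries of a clone came from separate cultures, so p-values measure only the spread between these libraries, which may be technical.

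The mitochondrial calcium uniporter is the channel through which calcium enters the mitochondrial matrix. Mcu forms its pore, Smdt1 is the small subunit that ties the pore to its gatekeepers, among them Micu2 and Micu3, and Mcub is a pore relative that lowers conduction. Calcium in the matrix stimulates dehydrogenases that feed the respiratory chain. By its title, the series asks whether mitochondrial calcium governs growth, metastasis and the epithelial state of pancreatic cancer cells.

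The deposited values were TPM, abundance estimates corrected for transcript length and summing to about the same total in every library. The depth behind them was unknown. Library totals lay between 998353 and 998961 TPM, and 11209 to 11507 genes reached 1 TPM in 8 of the 9 libraries. The ninth, clone 22 replicate 3, had 10760, and its upper quartile was 3.73 TPM against 6.97 to 7.85 TPM in the others. Relative to the other libraries of its clone, its median log2 difference was 0.38 for genes with transcripts of up to 1000 bases and -1.38 for those over 6000 bases. Most counts below are therefore given for all 9 libraries and for the 8 without this one. Log2 changes are those of the 9 libraries, clone 15 first, unless a gene is said to pass in the 8 or without replicate 3, and no gene named as called in the 9 lost its call in the 8. The cells carried epithelial RNA: Krt8 and Krt18, the paired keratins of simple epithelia, stood at 1540 TPM or more and Cdh1, E-cadherin, at 224 to 576 TPM in all 9 libraries. Vim, the mesenchymal filament vimentin, was also abundant at 1640 to 2340 TPM, while Epcam, an epithelial surface protein, stayed at 0.552 TPM or below.

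**Figure D1:**
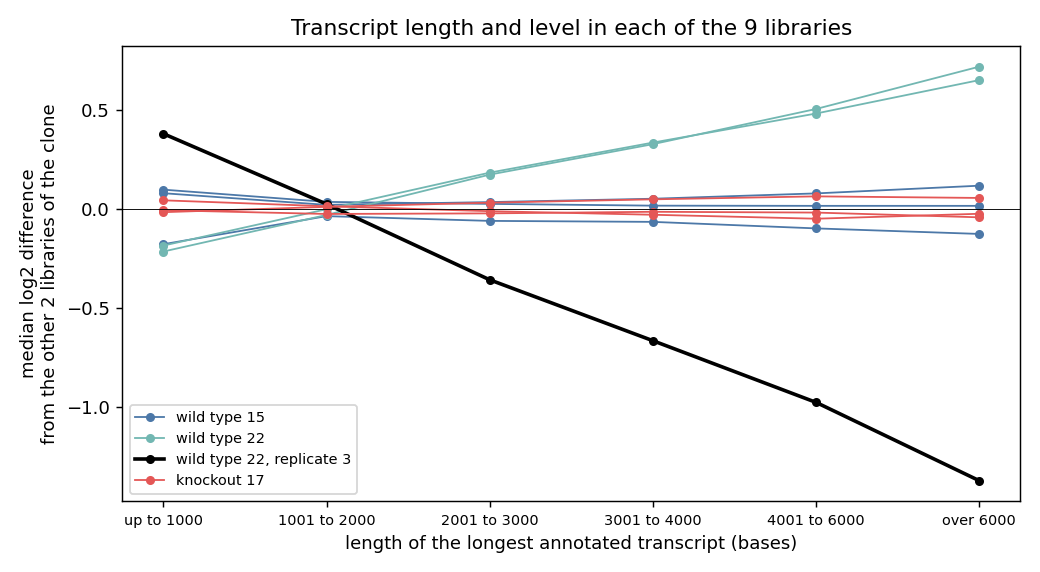
Median log2 difference of each library from the other 2 libraries of its clone (vertical axis), for genes grouped by the length of the longest annotated transcript in bases (horizontal axis); 1 line per library. The line of wild-type clone 22 replicate 3 runs from 0.38 to -1.38, and its 2 clone mates run the opposite way because they are compared with it.

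Mcu RNA was not low in the clone labelled knockout 17. Mcu (chromosome 10, 59446984 to 59616692, minus strand, mm10) stood at 120, 122 and 113 TPM in clone 17, at 68.4, 81.2 and 76 TPM in clone 15 and at 94.4, 96.3 and 59.3 TPM in clone 22. All 3 clone 17 libraries lay above all 6 wild-type libraries. The log2 change, on the log2(TPM + 1) scale used throughout, was 0.65 against clone 15 (SE 0.19, limma adjusted p = 0.0767) and 0.54 against clone 22 (SE 0.19, adjusted p = 0.182). Without clone 22 replicate 3 both passed, at 0.65 (SE 0.08, limma adjusted p = 0.000736) and 0.31 (SE 0.09, limma adjusted p = 0.0421). In clone 42, also labelled a CRISPR knockout, Mcu stood at 12.3, 10.5 and 11.5 TPM. An RNA level does not show whether an edited gene still makes protein, so this checks the label only in part, and every direction below is that of the library labelled knockout 17.

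Of the 7 uniporter genes, 1, Mcu, was higher in both contrasts and 0 lower without clone 22 replicate 3 (5.06% and 8.11% of all genes). In the 9-library limma fit, 0 were higher and 0 lower in both (1.04% and 1.06% of all genes). At an unadjusted p under 0.05 in that fit, 1 was higher and 0 lower in both (5.58% and 4.11% of all genes). Mcub was at 47.8, 46.8 and 42.4 TPM in clone 17, against 20.1 to 31.5 TPM in clone 15 and 38 to 42.6 TPM in clone 22. Its log2 change was 0.86 against clone 15 (limma adjusted p = 0.0207) and 0.20 against clone 22 (limma adjusted p = 0.573). Micu2 likewise differed from clone 15 (0.86, limma adjusted p = 0.042) and did not pass against clone 22 (0.08, limma adjusted p = 0.865). For Micu3, Smdt1 and Mcur1 the changes lay between -0.01 and 0.53 with no adjusted p under 0.05 in the 9 libraries.

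Against clone 15, 313 of 11609 genes (2.7%) were higher in clone 17 and 408 (3.51%) lower. Against clone 22, 204 (1.76%) were higher and 161 (1.39%) lower. With one sign in both, 121 genes (1.04%) were higher and 123 (1.06%) lower. Between the wild-type clones themselves, 15 genes (0.129%) were higher and 67 (0.577%) lower in clone 22 than in clone 15. Without clone 22 replicate 3, 1787 genes (15.5%) were higher and 1732 (15%) lower than in clone 15, 779 (6.74%) higher and 1288 (11.1%) lower than in clone 22, and 242 (2.09%) higher and 183 (1.58%) lower in clone 22 than in clone 15. The one-sign counts then were 585 higher (5.06%) and 938 lower (8.11%) of 11563 genes, and all 121 and all 123 were among them. In 13.2% of all genes the 3 clone 17 libraries lay above all 6 wild-type libraries, and in 5.27% below them. Both shares count clone 22 replicate 3, which was low for long transcripts, and were not computed without it. With median-of-ratios scaling of the 9 libraries the split was 161 higher and 252 lower, and with that of the 8 libraries 768 higher and 884 lower. In the 9 libraries the median log2 change of all genes against clone 22 was 0.16 as deposited and 0.00 after that scaling. Without replicate 3 it was -0.04 against clone 22 and 0.02 against clone 15.

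**Figure D2:**
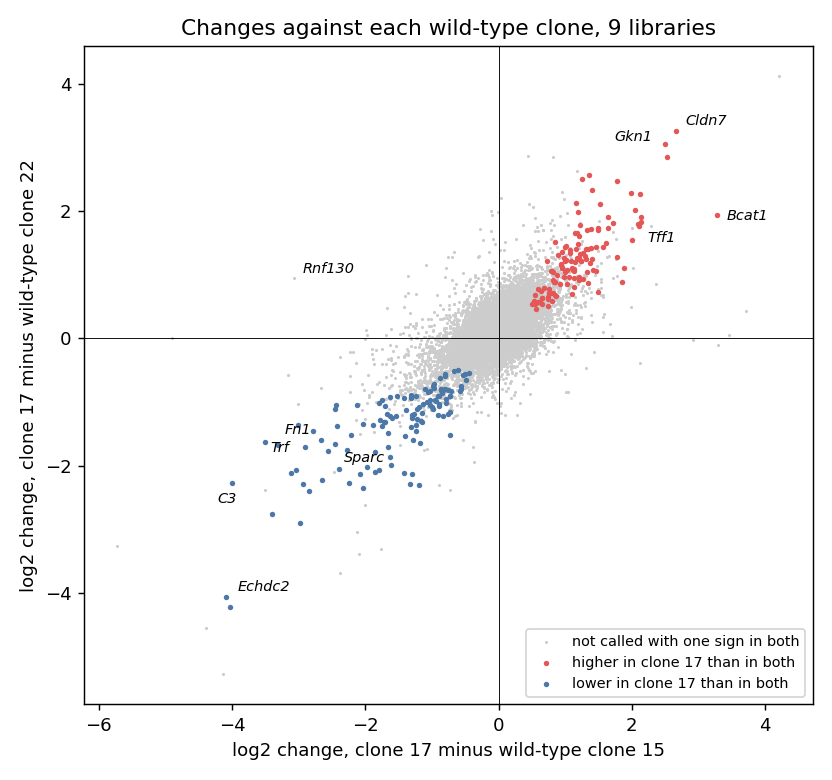
Log2 change of each tested gene in clone 17 against wild-type clone 15 (horizontal axis) and against wild-type clone 22 (vertical axis), 9 libraries; red and blue points are the 121 genes higher and the 123 genes lower in both. The axes share the clone 17 libraries, which by itself draws points to the diagonal. Rnf130, at the upper left, passed with opposite signs.

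The largest rises included Cldn7, Bcat1 and Pfkp. Cldn7, the tight junction protein claudin-7 (chromosome 11, 69964779 to 69967885, plus strand), was at 15.7, 17.2 and 16.6 TPM in clone 17, at 1.11, 1.27 and 3.42 TPM in clone 15 and at 0.624, 1.48 and 0.497 TPM in clone 22. The groups did not overlap, which the rule for naming the largest changes required. The log2 changes were 2.66 (SE 0.31, limma adjusted p = 0.00211) and 3.26 (SE 0.31, limma adjusted p = 0.00112). Clone 42 held 0.987 to 1.55 TPM, within the wild-type range. Bcat1, the cytosolic aminotransferase of branched-chain amino acids, was at 41.1, 43.4 and 41.3 TPM in clone 17, 2.65 to 4.34 TPM in clone 15 and 9.05 to 12.3 TPM in clone 22. Its log2 changes were 3.28 (limma adjusted p = 6.14e-05) and 1.94 (limma adjusted p = 0.00144), and the wild-type clones also stood apart from each other. Pfkp, the platelet form of the glycolytic enzyme phosphofructokinase, was at 24.4, 30.7 and 25.4 TPM in clone 17 and at 2.73 to 8.37 TPM in the wild-type libraries. Its log2 changes were 1.77 (limma adjusted p = 0.00383) and 2.48 (limma adjusted p = 0.00123).

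Further genes of the 15 largest rises were Grk5, a kinase of G protein-coupled receptors (log2 changes 2.12 and 2.26), Rhof, a small GTPase of filopodia (2.13 and 1.83), and Adm2, a peptide hormone of the calcitonin family (1.99 and 2.28). Pglyrp1, a secreted protein that binds bacterial peptidoglycan, also rose (1.52 and 2.12), as did Fam83e (1.71 and 1.81) and Lrrc26, an auxiliary subunit of calcium-activated potassium channels (2.00 and 1.54). Prl2c2 and Prl2c3, of the prolactin family, rose by 1.91 to 2.86, but they have near-identical relatives and their split between copies is uncertain. The named rises were the 15 largest of 102 genes that passed the naming rule.

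Among the falls, Echdc2, a mitochondrial enoyl-CoA hydratase-like protein (chromosome 4, 108165437 to 108179308, plus strand), was listed at 0 in all 3 clone 17 libraries. It stood at 13, 18.4 and 16.9 TPM in clone 15 and at 15.6, 16.8 and 14.6 TPM in clone 22. It passed in both contrasts, and clone 42 held 0.577 to 1.62 TPM. Nkx2-3, a homeobox transcription factor, was listed at 0, 0.0737 and 0.0271 TPM in clone 17 against 5.42 to 11.8 TPM in the wild-type libraries (log2 changes -3.40 and -2.75, limma adjusted p = 3.31e-05 and 0.000147).

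The 15 largest falls, of 92 that passed the naming rule, also held Fscn1, Dbn1 and Wipf1. Fscn1, the actin-bundling protein fascin, was at 73.1, 71.9 and 61.6 TPM in clone 17, at 278, 232 and 240 TPM in clone 15 and at 322, 303 and 270 TPM in clone 22. All clone 17 libraries lay below all others, which the naming rule required. The log2 changes were -1.85 (SE 0.13, limma adjusted p = 0.000131) and -2.10 (SE 0.13, limma adjusted p = 0.000147). Dbn1, the actin-binding protein drebrin, and Wipf1, a partner of the WASP actin regulators, fell as well (log2 changes -2.93 and -2.28, and -2.84 and -2.40). Slc38a1, a glutamine carrier, fell likewise (-3.11 and -2.12). Ptgds, a prostaglandin D2 synthase, was among them too (-2.65 and -2.22). Prrg1, at 0.257 to 0.791 TPM in clone 17, and Mfsd1, a lysosomal transporter, had changes of -2.05 to -2.98.

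**Figure D3:**
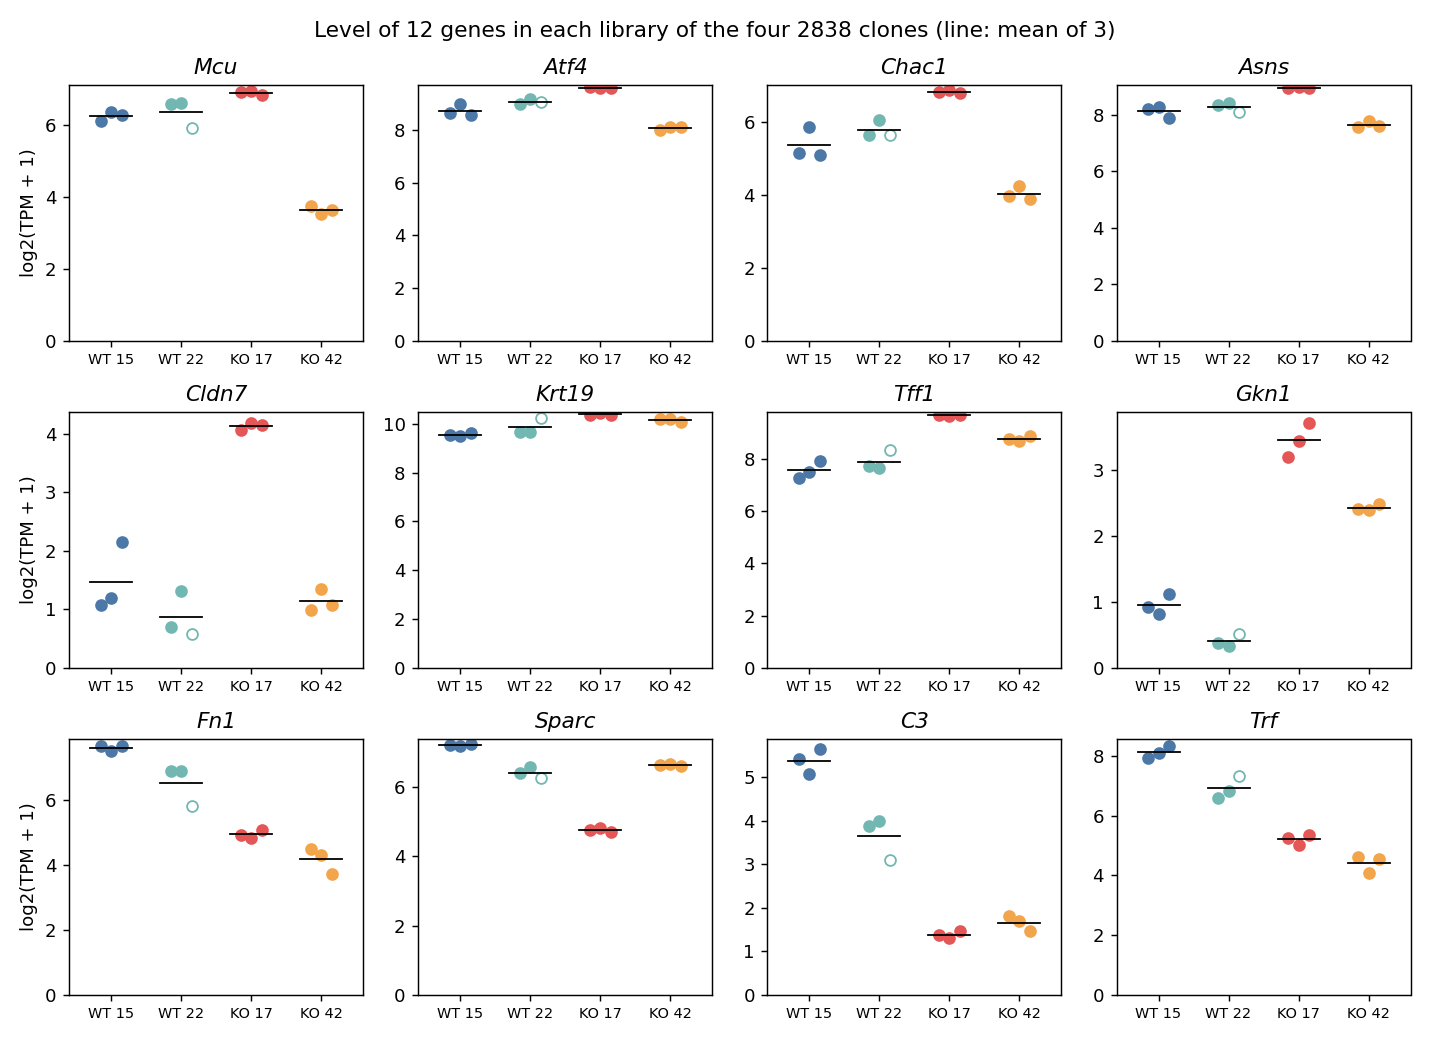
Log2(TPM + 1) of 12 genes (vertical axis) in each library of wild-type clones 15 and 22 and of the clones labelled knockout 17 and 42 (horizontal axis); points are libraries, the open point is clone 22 replicate 3, and lines are means of 3. In the plot, Atf4, Chac1 and Asns lie above both wild-type clones in clone 17 and below them in clone 42, while C3, Trf and Fn1 are low in both.

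More genes of the integrated stress response were called higher than lower in clone 17. This response, driven by the transcription factor Atf4 when translation initiation factor eIF2 is phosphorylated, raises genes of amino acid supply and, when prolonged, of cell death. Of its 30 tested genes, 4 were higher and 0 lower in the 9 libraries (1.04% and 1.06% of all genes), and 21 higher and 0 lower in both at an unadjusted p under 0.05 (5.58% and 4.11% of all genes). Without clone 22 replicate 3, 16 were higher and 0 lower (5.06% and 8.11% of all genes). Their median log2 changes were 0.82 and 0.68 in the 9 libraries, against 0.02 and 0.16 for all genes, and 0.82 and 0.54 without that library, against 0.02 and -0.04. In bulk RNA, fewer cells of a kind and less RNA per cell cannot be told apart.

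Atf4 itself was at 801, 783 and 788 TPM in clone 17, at 405, 515 and 378 TPM in clone 15 and at 518, 579 and 534 TPM in clone 22. The groups did not overlap. Its change was 0.88 against clone 15 (limma adjusted p = 0.00573) and 0.54 against clone 22 (limma adjusted p = 0.0608, or 0.0235 without replicate 3). Chac1, an enzyme that degrades glutathione, was at 113, 116 and 111 TPM in clone 17, 33.3 to 57.3 TPM in clone 15 and 48.6 to 65.3 TPM in clone 22. Its log2 changes were 1.46 (SE 0.21, limma adjusted p = 0.00555) and 1.06 (SE 0.21, limma adjusted p = 0.0342). Replicate 2 was the highest library of both wild-type clones for Chac1, and also for Trib3, the pseudokinase that feeds back on Atf4, at 111 and 102 TPM. Trib3 was at 187, 198 and 168 TPM in clone 17, with changes of 1.48 and 1.14 (limma adjusted p = 0.0185 and 0.0755, or 0.00599 and 0.0493 without replicate 3).

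Asns, which makes asparagine, was at 494, 508 and 496 TPM in clone 17 against 235 to 313 TPM in clone 15 and 271 to 343 TPM in clone 22. All 3 clone 17 libraries lay above the others, and the changes were 0.84 (limma adjusted p = 0.00942) and 0.68 (limma adjusted p = 0.0355). Slc7a3, a carrier of cationic amino acids, rose from 2.33 to 5.8 TPM in the wild-type libraries to 17.5, 19.1 and 13.6 TPM (log2 changes 2.05 and 2.02). Atf3, a stress-induced transcription factor, was at 29, 34.2 and 26.3 TPM in clone 17 and at 9.48 to 16.6 TPM elsewhere among the wild-type libraries (1.14 and 1.20). Without clone 22 replicate 3 the amino acid carriers Slc7a5, Slc3a2 and Slc6a9, the tRNA synthetases Gars and Wars, the mitochondrial enzymes Mthfd2 and Pck2, the secreted factor Gdf15, and Ddit3 and Sesn2 passed as well. Pck2, the mitochondrial phosphoenolpyruvate carboxykinase, stood at 306 ± 7.34 TPM in clone 17, 186 ± 21.6 TPM in clone 15 and 205 ± 28.3 TPM in clone 22 (SD, n = 3 each). Phgdh, which opens serine synthesis, did not pass in both contrasts even so: its changes were 0.39 and 0.28 (limma adjusted p = 0.00869 and 0.0714).

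The promoters of these genes were searched because Atf4 binds, with a C/EBP partner, a composite element with the core TGATGNAA. Of the 16 stress response genes called without clone 22 replicate 3, 13 had a RefSeq promoter (GRCm38.p6), with 16 start sites. The core was found on either strand in the 250 bases before 5 of the 16 starts (31.2%), those of Asns, Atf3, Chac1, Gars and Pck2. It was found at 1.98% of 11638 starts of the genes tested and at 3.45% of all 32851 starts. The list holds genes of a response driven by Atf4. A share above that of all genes could therefore arise whether or not the members of the list were called. Its uncalled members were not counted apart, so whether the core goes with the calls was not tested. A match describes the letters in a window and does not show binding. The stretches around the core in Atf3 (chr1:191183406-191183473, minus strand), Chac1 (chr2:119351019-119351086, plus strand) and Pck2 (chr14:55540133-55540200, plus strand) are shown 5′ to 3′ on the strand of the gene, with the core in capitals. In all 3 it lies on the opposite strand and so reads as its reverse complement.
Atf3: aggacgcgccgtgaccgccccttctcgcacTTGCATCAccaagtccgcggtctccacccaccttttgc
Chac1: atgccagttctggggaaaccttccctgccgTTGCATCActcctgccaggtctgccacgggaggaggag
Pck2: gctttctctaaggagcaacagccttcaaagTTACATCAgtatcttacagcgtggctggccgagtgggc

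Genes of gastric and mucous epithelium rose in part. Of 17 tested, 5 were higher and 0 lower in the 9 libraries (1.04% and 1.06% of all genes). In the 8, 8 were higher and 2 lower (5.06% and 8.11% of all genes). Their medians were 1.15 and 0.56, or 1.15 and 0.41 in the 8. Tff1, a secreted trefoil peptide that protects mucosa, was at 825, 815 and 824 TPM in clone 17, at 155, 181 and 246 TPM in clone 15 and at 212, 200 and 326 TPM in clone 22. The log2 changes were 2.10 (SE 0.21, limma adjusted p = 0.000931) and 1.77 (SE 0.21, limma adjusted p = 0.00306), with no overlap, which the naming rule required. Its neighbour Tff2 went the other way: 19.1, 15.4 and 18.9 TPM in clone 17, 105 to 134 TPM in clone 15 and 23.7 to 46.8 TPM in clone 22. Tff2 passed against clone 15 (-2.66, limma adjusted p = 0.000473) and not against clone 22 in the 9 libraries (-0.78, limma adjusted p = 0.135, or -0.49 with limma adjusted p = 0.0377 without replicate 3). Gkn1, a gastrokine of stomach mucus, was at 8.18, 9.92 and 12.1 TPM in clone 17 against 0.258 to 1.17 TPM in the wild-type libraries (log2 changes 2.50 and 3.05, limma adjusted p = 0.000248 and 0.000147). Mucl3, a mucin-like protein (2.09 and 1.79), Gcnt3, which branches mucin sugars (1.24 and 1.21), and Anxa10, an annexin of gastric epithelium (1.20 and 1.24), also rose.

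Epithelial genes were next. Of 29 tested genes of epithelial adhesion and keratins, 3 were higher and 0 lower in the 9 libraries (1.04% and 1.06% of all genes), and 8 higher and 0 lower in the 8 (5.06% and 8.11% of all genes). The 8-library medians were 0.32 and 0.22. Krt23 was at 134, 139 and 130 TPM in clone 17 and at 46.7 to 81 TPM in the wild-type libraries (1.34 and 0.87, limma adjusted p = 0.00132 and 0.0157). Tjp3, a tight junction scaffold, rose by 0.69 and 0.79. Krt19, a ductal keratin, was at 1330, 1390 and 1320 TPM in clone 17 against 730 to 782 TPM in clone 15 and 815 to 1200 TPM in clone 22. It passed against clone 15 (0.84, limma adjusted p = 0.0134) and, without replicate 3, against clone 22 (0.71, limma adjusted p = 0.000637). Cdh1 did not pass in both contrasts: 465, 478 and 455 TPM in clone 17 lay above clone 15 and below the first 2 libraries of clone 22, at 576 and 535 TPM.

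Of 10 basal and squamous genes tested, 3 were higher and 0 lower (1.04% and 1.06% of all genes), with medians of 1.00 and 0.89. In the 8, 6 were higher and 1 lower (5.06% and 8.11% of all genes), with medians of 1.00 and 0.84. Sprr1a, a precursor of the cornified envelope, was at 431, 413 and 447 TPM in clone 17 and at 142 to 245 TPM in the wild-type libraries (log2 changes 1.19 and 1.48). Fgfbp1, which releases fibroblast growth factors from matrix, rose to 18.4, 17.9 and 17.5 TPM from 3.1 to 9.74 TPM (1.20 and 1.98). Sprr2a2 rose too (1.33 and 1.71), but belongs to a family of near copies and is uncertain. Serpinb5, the inhibitor family member maspin, passed without replicate 3 (1.72 and 0.80).

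Several mesenchymal and matrix genes fell. In the 9 libraries 2 of 12 tested mesenchymal genes were lower and 0 higher (all genes: 1.06% lower, 1.04% higher). In the 8 libraries 4 were lower and 0 higher (all genes: 8.11% lower, 5.06% higher), with medians of -0.29 and -0.56. Sparc, a matrix glycoprotein, was at 26.1, 27.2 and 24.9 TPM in clone 17, at 146, 143 and 151 TPM in clone 15 and at 84, 93.9 and 75.9 TPM in clone 22. It lay below both clones in every library (log2 changes -2.45, SE 0.12, limma adjusted p = 2.73e-05, and -1.66, SE 0.12, limma adjusted p = 0.000244). Fn1, fibronectin, was at 29.1, 27.3 and 32.8 TPM in clone 17 against 178 to 201 TPM in clone 15 and 54.5 to 118 TPM in clone 22 (-2.66 and -1.59, limma adjusted p = 0.000903 and 0.0162). Fn1 has a long transcript and was lowest, among the wild-type libraries, in clone 22 replicate 3. Without it the second change was -1.95 (limma adjusted p = 2.75e-05). Vim did not differ past the threshold from either clone (0.20 and -0.08, limma adjusted p = 0.431 and 0.753).

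Among 25 tested collagen and matrix genes the 9 libraries gave 2 higher and 2 lower (1.04% and 1.06% of all genes), and the 8 gave 3 higher and 9 lower (5.06% and 8.11%). Lamb3, a laminin chain of epithelial basement membrane, passed in the 8 libraries (1.08 and 0.63). Col6a1, a chain of the microfibrillar collagen VI, was at 2.47, 3.25 and 2.86 TPM against 11.3 to 22.8 TPM (-2.25 and -2.27), and its partner chain Col6a2 fell as well (-1.28 and -1.60). Plaur, the urokinase receptor, rose to 306, 295 and 299 TPM from 110 to 195 TPM (1.11 and 0.70, limma adjusted p = 0.00352 and 0.0404). Mmp10, the metalloprotease stromelysin-2, fell (-1.72 and -1.32). Plaur and Mmp10 were the 1 higher and 1 lower of 18 matrix proteases and inhibitors in the 9 libraries, and 3 were higher and 3 lower in the 8. Itga7, a laminin-binding integrin chain, rose by 0.95 and 1.36 and was the single called gene of 12 integrins in the 9 and in the 8 libraries. Of 6 transcription factors of epithelial-mesenchymal transition, limma called 0 in the 9 libraries. At an unadjusted p under 0.05, 1 was higher and 0 lower (5.58% and 4.11% of all genes). Snai2 was higher and Sox4 and Sox9 lower in the 8. Of 17 foregut and ductal transcription factors, Nkx2-3 was the single called gene in the 9 libraries, and 0 were higher and 3 lower in the 8.

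Liver-type plasma and complement genes formed the list with the most falls in the 9 libraries. Of 22 tested, 2 were higher and 8 lower in the 9 libraries (1.04% and 1.06% of all genes), with medians of -1.42 and -0.41. The 8 libraries gave 3 higher and 10 lower (5.06% and 8.11% of all genes), with medians of -1.42 and -0.43. C3, the central complement component, was at 1.61, 1.48 and 1.75 TPM in clone 17, at 41.7, 32.7 and 49.3 TPM in clone 15 and at 13.6, 14.8 and 7.56 TPM in clone 22. The 3 clones were separate, and clone 22 lay between the others (log2 changes -4.00, SE 0.26, limma adjusted p = 8.51e-05, and -2.26, SE 0.26, limma adjusted p = 0.00233). Trf, the iron carrier transferrin, was at 37.3, 31.6 and 39.4 TPM in clone 17 against 241 to 324 TPM in clone 15 and 95.8 to 159 TPM in clone 22 (-2.91 and -1.70). C1s1, a protease of the classical pathway (-3.04 and -2.06), and Hp, the haemoglobin-binding haptoglobin (-2.03 and -2.35), fell too. Cfb, of the alternative complement pathway, the copper carrier Cp, the vitamin D carrier Gc and the iron-scavenging lipocalin Lcn2 were the other 4. The 2 higher members of the 9 libraries were Cd55, a cell-surface brake on complement (1.39 and 1.72), and F3, tissue factor, which starts coagulation (1.21 and 0.92). Apoa1, a plasma apolipoprotein, was higher as well in the 8 libraries.

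Chemokines moved both ways. Among 27 tested chemokine and inflammatory genes, 2 rose and 2 fell in the 9 libraries (1.04% and 1.06% of all genes), and 3 rose and 7 fell in the 8 (5.06% and 8.11%). Of 18 interferon response and MHC class I genes, limma called 0 in the 9 libraries. At an unadjusted p under 0.05, 0 were higher and 2 lower (5.58% and 4.11% of all genes). Of 17 tested in the 8 libraries, 0 were higher and 3 lower. Ccl20, which draws cells bearing Ccr6, was at 258, 263 and 240 TPM in clone 17 and at 97.4 to 123 TPM in the wild-type libraries (1.24 and 1.22, limma adjusted p = 0.000903 and 0.00147). Il33, an alarmin cytokine, rose to 103, 109 and 105 TPM from 17.7 to 56.1 TPM (1.22 and 1.78). Ccl2, a monocyte attractant, fell to 16.2, 17.5 and 16.5 TPM from 31.5 to 81.6 TPM (-1.75 and -0.97), and Cxcl3, a neutrophil attractant, to 99.1, 84.5 and 96.9 TPM from 131 to 229 TPM (-0.73 and -1.15). Csf1, the macrophage growth factor, was at 18.6, 15.9 and 14 TPM against 23.4 to 51.4 TPM. It passed in the 8 libraries (-1.44 and -1.55, limma adjusted p = 0.000137 and 0.000365).

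Markers of other cell types were low throughout. Summed over their lists, fibroblast and stellate markers reached at most 1.49 TPM in clone 17 and 2.08 TPM in the wild-type libraries, with Dcn, Lum, Col1a2 and Col3a1 at 0 in all 9. Immune markers summed to 3.76 to 4.85 TPM and 3.09 to 6.41 TPM, with 8 of 18 at 0, among them Cd3e, Cd4 and Adgre1. Endothelial markers summed to 1.53 to 1.93 TPM and 2.41 to 3.31 TPM, with Cldn5 at 0. Endocrine markers stayed at or below 0.59 TPM, with Ins1, Ins2 and Gcg at 0. Acinar markers summed to 13 to 15 TPM in clone 17 and 16.7 to 29.3 TPM in the wild-type libraries, nearly all of it the elastase gene Cela1. Acinar Cpa1, Amy2a5 and Ptf1a were at 0.

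**Figure D4:**
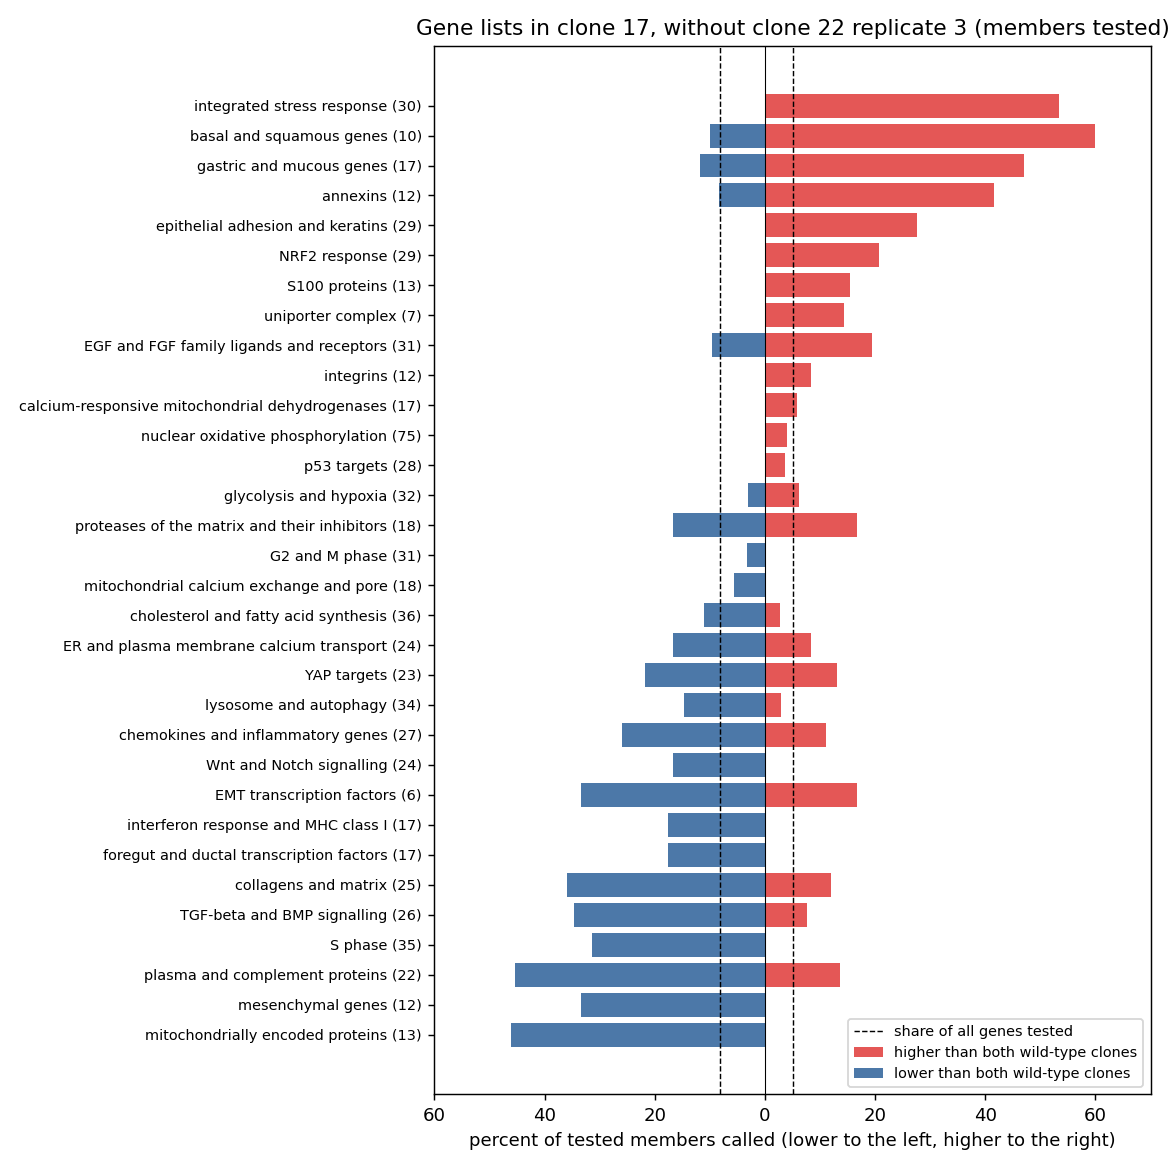
Percent of the tested members of each gene list (number in brackets) called higher (red, to the right) or lower (blue, to the left) in clone 17 than in both wild-type clones, without clone 22 replicate 3; dashed lines are the 5.06% and 8.11% of all genes. Lists with under 5 tested members, and 1 other, are left out; stress response, squamous and gastric genes extend farthest to the right, mitochondrially encoded and plasma genes farthest to the left.

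Most genes of the signalling lists did not pass. Of all genes, 1.04% were higher and 1.06% lower in the 9 libraries, and 5.06% and 8.11% in the 8. Of 31 EGF, FGF and IGF family ligands, receptors and binding proteins tested, 2 were higher and 1 lower in the 9 libraries and 6 higher and 3 lower in the 8. Igfbp7, a secreted binder of insulin-like growth factors, fell to 642, 694 and 652 TPM from 1270 to 1740 TPM (-1.14 and -1.17, limma adjusted p = 0.00252 and 0.00291). Areg, the EGF receptor ligand amphiregulin, was at 67.6, 73.6 and 67.8 TPM against 27.5 to 44.4 TPM and passed in the 8 libraries (1.01 and 0.65). Of 24 Wnt and Notch genes, 0 were higher and 2 lower in the 9 libraries: the receptor Fzd2 (-1.42 and -0.93) and the transcription factor Tcf7 (-1.22 and -1.10). In the 8 libraries 0 were higher and 4 lower. Of 26 TGF-beta and BMP genes, limma called 0 in the 9 libraries, with 1 higher and 5 lower at an unadjusted p under 0.05 (5.58% and 4.11% of all genes). The 8 libraries gave 2 higher and 9 lower. Ltbp1, which holds latent TGF-beta in the matrix, was at 16.9 ± 1.45 TPM in clone 17, 43.5 ± 1.95 TPM in clone 15 and 32.5 ± 13.3 TPM in clone 22 (SD, n = 3 each). Of 23 YAP targets, 1 was higher (F3) in the 9 libraries, and 3 higher and 5 lower in the 8. The lower ones included the matricellular genes Ccn1 (-0.40 and -0.32) and Ccn2 (-1.04 and -0.62).

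Of 35 S phase genes, 0 were higher and 1 lower in the 9 libraries (1.04% and 1.06% of all genes), with 0 higher and 10 lower at an unadjusted p under 0.05 (5.58% and 4.11%). The 8 libraries gave 0 higher and 11 lower (5.06% and 8.11% of all genes), with medians of -0.39 and -0.53. The single called gene of the 9 libraries was Ung. Ung, which removes uracil from DNA, was at 1.85, 2.44 and 3.14 TPM in clone 17 and at 7.43 to 12.8 TPM in the wild-type libraries (-1.66 and -1.49, limma adjusted p = 0.00412 and 0.0115). The replicative helicase subunits Mcm2 (-0.42 and -0.37) and Mcm4 (-0.57 and -0.78), and Tyms, which makes thymidylate (-0.47 and -0.70), passed in the 8 libraries. Of 31 genes of G2 and M phase, 0 were higher and 1 lower in the 8 libraries. In the 9 libraries limma called 0 of them, with 0 higher and 1 lower at an unadjusted p under 0.05.

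Among mitochondrial genes, the 13 encoded by mitochondrial DNA had median changes of -0.74 and -0.45 in the 8 libraries, where 6 were lower and 0 higher (all genes: 8.11% lower, 5.06% higher). In the 9 libraries limma called 0 of them, with 0 higher and 1 lower at an unadjusted p under 0.05. At that unadjusted threshold 5.58% of all genes were higher and 4.11% lower, which holds for the other lists of this paragraph too. The share of mitochondrially encoded genes in all TPM was 6.24%, 5.5% and 6.18% in clone 17, 11.4%, 8.37% and 8.97% in clone 15, and 8.27%, 7.69% and 4.59% in clone 22, the last in replicate 3. Among the wild-type libraries only that one lay below clone 17. mt-Nd4, a complex I subunit, was at 1270, 1280 and 1340 TPM in clone 17, 2110 to 3040 TPM in clone 15 and 1180 to 2060 TPM in clone 22 (8 libraries: -0.92 and -0.60, limma adjusted p = 0.00144 and 0.0236). Of the 75 nuclear genes of oxidative phosphorylation, limma called 0 in the 9 libraries, with 2 higher and 0 lower at an unadjusted p under 0.05, and 3 higher and 0 lower in the 8: Cycs, Ndufa8 and Ndufa9. Of 17 calcium-responsive dehydrogenase genes and their regulators, 1 was higher in the 8 libraries, Pdha1, a subunit of pyruvate dehydrogenase. In the 9 libraries limma called 0 of them, with 0 at an unadjusted p under 0.05. Of 18 genes of mitochondrial calcium exchange and the permeability pore, 1 was lower in the 8 libraries, the calcium-regulated carrier Slc25a23 (-1.30 and -1.17). In the 9 libraries limma called 0, with 1 higher and 1 lower at an unadjusted p under 0.05. Of 24 genes of calcium transport at the endoplasmic reticulum and plasma membrane, limma called 0 in the 9 libraries, with 3 higher and 1 lower at an unadjusted p under 0.05. Of these, 2 were higher in the 8 libraries, Atp2a3 and Orai3, and 4 lower, Atp2c1, Calm2, Itpr3 and Trpm7 (5.06% and 8.11% of all genes). Atp2a3, a calcium pump of the endoplasmic reticulum, was at 27.4 ± 1.76 TPM in clone 17, 6.05 ± 0.75 TPM in clone 15 and 12.8 ± 4.54 TPM in clone 22 (SD, n = 3 each) and passed in the 8 libraries (2.02 and 0.79).

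Elsewhere in metabolism, Slc2a1, the glucose carrier, was at 128, 126 and 124 TPM against 71.9 to 96.5 TPM in the wild-type libraries (0.74 and 0.51, limma adjusted p = 0.0065 and 0.0461). It and Pfkp were the 2 higher of 32 glycolysis and hypoxia genes, with 0 lower in the 9 libraries and 1 lower, Pfkfb3, in the 8. For this list and the others of this paragraph, the shares of all genes were 1.04% higher and 1.06% lower in the 9 libraries. In the 8 they were 5.06% and 8.11%. Fasn, the fatty acid synthase, was the single lower gene of 36 of lipid synthesis (-0.87 and -0.81, limma adjusted p = 0.0244 and 0.0469), with 0 higher. In the 8 libraries 4 were lower and 1 higher, against 8.11% and 5.06% of all genes. Ephx1, an epoxide hydrolase, was the single higher gene of 29 of the NRF2 response (0.78 and 0.71). In the 8 libraries 6 were higher and 0 lower (5.06% and 8.11% of all genes), including the detoxifying transferases Gsta1 and Gstp1. Grn, the lysosomal protein progranulin, fell (-0.81 and -0.57) and was the single called gene of 34 of lysosome and autophagy in the 9 libraries. Of the 34, 1 was higher and 5 lower in the 8. Of 28 p53 targets, limma called 0 in the 9 libraries, with 3 higher and 0 lower at an unadjusted p under 0.05 (5.58% and 4.11% of all genes). In the 8 libraries Sesn2 was higher and 0 were lower. Of 12 annexins, Anxa10 and Anxa11 were higher and Anxa6 lower, the last at 14.7, 16.9 and 14.9 TPM against 43.2 to 59.9 TPM (-1.65 and -1.70). In the 8 libraries 5 annexins were higher and 1 lower (5.06% and 8.11% of all genes). Of 13 S100 genes, S100a14 was higher (1.17 and 1.41) and 0 lower in the 9 libraries, and 2 were higher and 0 lower in the 8.

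The falls were unevenly spread over the chromosomes. On chromosome 17 the median log2 change was -0.39 against clone 15 and -0.32 against clone 22 in the 9 libraries, or -0.47 against clone 22 in the 8. There 25 of 582 genes (4.3%) were lower and 2 higher in the 9 libraries, and 213 of 577 (36.9%) lower and 4 higher in the 8. Of all genes, 1.06% were lower and 1.04% higher in the 9 libraries, and 8.11% and 5.06% in the 8. The 2 higher genes were Tff1 and Mucl3. The shift ran along the chromosome: in each of its 10 windows of 10000000 bases the median lay between -0.24 and -0.56 in the 8 libraries. As a median deviation from each gene's mean over the 8 libraries, less the library's own median over all genes, chromosome 17 was at -0.26, -0.26 and -0.25 in the clone 17 libraries, at 0.12 to 0.33 in the wild-type libraries and at 0.44 to 0.49 in those of clone 42. C3, Tff2 and Uhrf1 lie there as well. On chromosomes 5 and 9, 17.9% and 17.2% of genes were lower in the 8 libraries, with medians of -0.18 to -0.21. Rises were uneven too: on chromosome 6, 73 of 530 genes were higher and 20 lower in the 8 libraries. After each library was centred on each chromosome, 192 genes were lower in the 9 libraries. DNA copy number was not analysed here.

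**Figure D5:**
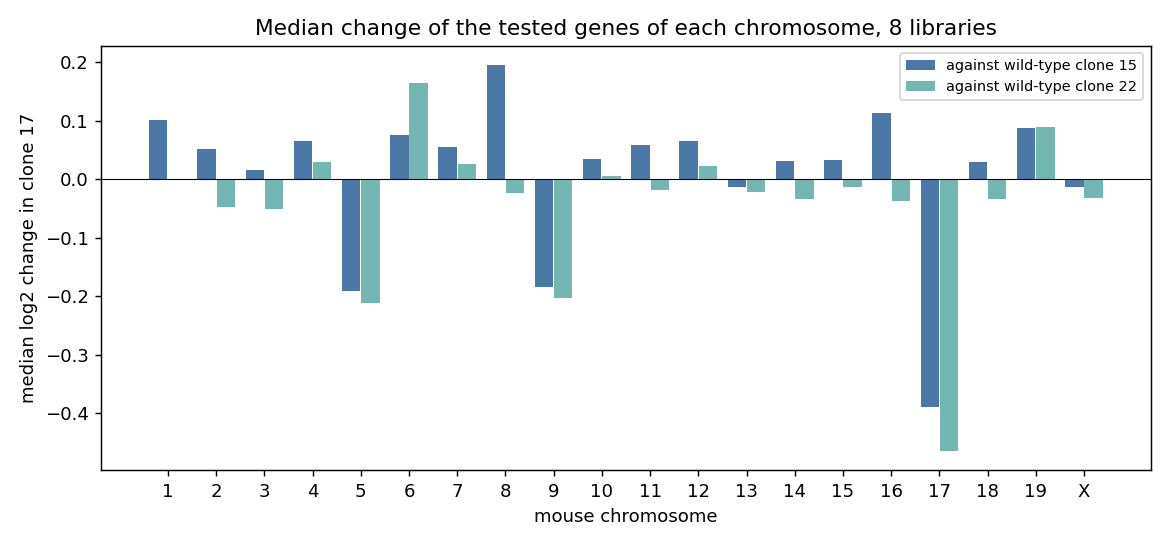
Median log2 change in clone 17 of the tested genes of each chromosome (horizontal axis: chromosome) against wild-type clone 15 (blue) and wild-type clone 22 (green), 8 libraries, without clone 22 replicate 3. Chromosome 17, at -0.39 and -0.47, lies below all others plotted; chromosomes 5 and 9 follow.

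Clone 42, the other clone labelled knockout, was fitted together with these over 12 libraries. In that fit 1060 of 11795 genes were higher in clone 17 than in clone 42 (8.99%) and 971 lower (8.23%). Without clone 22 replicate 3, 2522 (21.4%) were higher and 2365 (20.1%) lower of 11767. The 121 higher and 123 lower genes were chosen by the clone 17 libraries, which this comparison uses again, so an excess in the same direction is built in. Of the 121 genes higher than in both wild-type clones, 81 were also higher than in clone 42 and 4 lower, or 91 and 6 without clone 22 replicate 3. Of the 123 lower genes, 71 were lower than in clone 42 and 4 higher, or 83 and 6 without it. Of the 30 stress response genes, 26 were higher in clone 17 than in clone 42 and 1 lower, with a median log2 difference of 1.29, and 29 higher and 1 lower without it. Of the 35 S phase genes, 0 were higher and 20 lower, or 0 and 30 without it. The gastric and squamous lists did not stand higher in clone 17 than in clone 42 in the 12-library fit. Of 17 gastric and mucous genes, 4 were higher and 7 lower, with a median log2 difference of -0.30. Of 12 basal and squamous genes tested there, 0 were higher and 4 lower, with a median of -0.23. Mucl3 was far lower in clone 17 than in clone 42, where it stood at 505, 456 and 480 TPM (-2.27, limma adjusted p = 3.39e-05). The comparisons of the 2 clones with the wild-type clones share the wild-type libraries, so for C3 and Trf the values are given side by side: 1.61 ± 0.134 and 2.18 ± 0.397 TPM for C3 and 36.1 ± 4.01 and 20.6 ± 4.05 TPM for Trf in clones 17 and 42 (SD, n = 3 each). Wipf1 was likewise low in both, at up to 1.05 TPM, whereas Prrg1 stood at 9.31 to 15.1 TPM and Mfsd1 at 16.5 to 27.5 TPM in clone 42, near or above the wild-type levels.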

How the data were processed

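PolyA RNA of untreated 2838 clones was sequenced. Expression was taken from a table that the authors deposited, holding TPM for 35642 gene symbols. Per the submitters' processing notes these were made with Salmon against mm10, and DESeq2 was also named. Versions and annotation are not given in the sources used here. Log2(TPM + 1) of genes with at least 1 TPM in 3 of the 9 libraries was fitted with limma 3.58.1 (R 4.3.3; group means, trend), with Benjamini-Hochberg adjustment over all genes and a threshold of 0.05. This scale understates changes of low genes, and depth is unknown, so no counting interval is given. No 2 libraries were identical. The fit was tested on simulated data.

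The members and the 39 gene lists (1054 entries) were chosen with earlier results of these data known. Named genes passed in both contrasts, with and without clone 22 replicate 3, with clone 17 apart from all wild-type libraries and with the higher group averaging 5 TPM or more. The 15 largest rises and falls by the smaller change were kept, without predicted symbols, plus the uniporter genes and, from each list, at most 4 members that passed. Other genes in the text, such as Atf4, Trib3, Krt19, Vim, Tff2, Csf1, Areg, Mcm2, mt-Nd4, Pck2, Atp2a3 and Rnf130, were chosen after their values were seen. A few named genes and lists are not reported.

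Positions came from GENCODE M21, matched for 97.9% of tested genes, and promoters from RefSeq (GRCm38.p6). Alternatives were another pseudocount, filters, scalings, a table without mitochondrially encoded genes, a fit without trend, a minimum log2 change, a replicate block, other fits and leaving out each library. Centring per chromosome was chosen after seeing the data.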

Additional observations from a re-analysis of the deposited data

Results flagged for a closer look

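In 10 genes named in the text or followed after their values were seen, the clones labelled knockout 17 and 42 each passed against both wild-type clones in the 12-library limma fit, with opposite signs, and their difference passed there too. In that fit the adjusted p against the wild-type clones was at most 0.0458 for clone 17 (Sesn2) and at most 0.0367 for clone 42 (Asns). In the 9-library fit Sesn2 and Uhrf1 did not pass against either wild-type clone, and Atf4, Ddit3 and Trib3 did not pass against clone 22. As log2 differences, clone 17 minus clone 42, stress response genes were higher: Trib3 by 3.17 (adjusted p = 2.26e-05), Ddit3 by 2.87, Chac1 by 2.81, Sesn2 by 1.92, Atf4 by 1.54 and Asns by 1.31. Trib3, for instance, stood 1.48 and 1.14 above wild-type clones 15 and 22 in clone 17, and at -1.69 and -2.03 against them in clone 42. Pfkp, the platelet phosphofructokinase, showed the largest difference of the 10, 4.10 (adjusted p = 1.89e-06): clone 42 held 0.474 to 0.892 TPM and clone 17 24.4 to 30.7 TPM. Sncg, gamma-synuclein, differed by -3.90 (adjusted p = 5.67e-05), with 0.418 to 1.09 TPM in clone 17 and 20 to 33.4 TPM in clone 42. Uhrf1, which maintains DNA methylation at replication, differed by -1.92 and the chemokine Cxcl3 by -1.66. Uhrf1 lies on chromosome 17, whose median log2 difference between the 2 clones was -0.69. Its part in that result was not tested. Over all genes of the 12-library fit, 17 of 245 higher in clone 17 were lower in clone 42, and 25 of 219 lower ones were higher there. More went the same way: 58 of the 245 were also higher in clone 42, and 61 of the 219 also lower. Both clones were compared with the same wild-type libraries, which by itself favours the same direction.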

How the results depend on the processing

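None of the 132 changes of the 66 named called genes turned its direction under an alternative that gave it a value. Of these, 114 had one with a mean of at least 5 TPM, 130 without a clone 17 library, and 132 otherwise. The genes were chosen by their calls in the same libraries, so a turn was unlikely beforehand. Over all 9 libraries, 721 genes differed between clone 17 and clone 15, 365 between clone 17 and clone 22, 121 were higher and 123 lower than in both, and 82 differed between the wild-type clones. Alternatives are given in that order where they moved a count by over 1.5 times. The fit of 12 libraries gave 1263, 765, 245, 219 and 226. Quantile normalization gave 1303, 708, 208, 288 and 159. Median-of-ratios scaling gave 1153, 586, 252 lower and 128. A minimum log2 change of 1 left 406, 220, 68 and 71. Separate fits of 6 libraries gave 2999, 152, 69, 67 and 1. A mean of at least 5 TPM gave 439 against clone 15 and 34 between the wild-type clones, where no filter gave 137, no trend 126 and a pseudocount of 0.1 gave 53. Centring per chromosome gave 192 lower. The causes were not tested. Leaving out 1 library gave 196 to 3519, 93 to 2067, 28 to 585, 35 to 938 and 5 to 425, and 1161 to 4887 for clone 17 against clone 42, from 2031. Each highest count came without clone 22 replicate 3. Leaving out any other library gave at most 596, 352, 75, 99, 24 and 2195. Without a clone 17 library, 45 to 47 of the 130 named changes no longer passed. With clone means as units, 136 genes were higher and 131 lower, from 1 residual degree of freedom and a spread taken from the trend alone. The replicate block gave 437, 178, 61, 69 and 9. Same-numbered libraries correlated at -0.137 to 0.142 over 9 pairs, which does not show whether some genes share a replicate effect. Replicate 2, for instance, was the highest library of both wild-type clones for Chac1 and Trib3. In all, 3 of 9 libraries correlated best with their own number. Depth is unknown and limits low genes to an unknown extent.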
